A study of Homo sapiens with 6 samples.

Results

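BANF1 and the nuclear lamina genes are described here as 10 genes among the 18999 features measured in the study. They are BANF1, LMNA, LMNB1, LMNB2, LBR, EMD, TMPO, LEMD2, LEMD3 and VRK1, and each matched 1 row of the table by its name. BANF1 was chosen by its FPKM in this same comparison, as one of the larger falls among genes with a full seed match, and the other genes because they encode the lamina and the partners of BAF. Results of the comparison were known when all of them were set down, so the values of these 10 genes are a description without a test.

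The cells were MCF10A, an immortalised and non-tumorigenic human mammary epithelial line grown with horse serum, epidermal growth factor, insulin, cholera toxin and hydrocortisone. The empty-vector group carried pMSCVpuro and the pre-miR-203a group carried pMSCVpuro-pre-miR-203a, both brought in by retrovirus and kept under puromycin, with 3 libraries each. The labels state no promoter, clone or shared culture day. Separate cultures are not mentioned, so p-values measure the spread between these libraries alone, which may be technical. The design text speaks of total RNA while the extract protocol describes a pull-down with an AGO2 antibody before mRNA purification. Which of these the libraries went through could not be settled, so a level below may be one in total RNA or in AGO2-bound RNA.

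The nuclear lamina is a mesh of lamin filaments under the inner nuclear membrane. A-type lamins come from LMNA and B-type lamins from LMNB1 and LMNB2. The inner membrane proteins LBR, emerin (EMD), LAP2 (TMPO), LEMD2 and MAN1 (LEMD3) bind lamins or chromatin, and all but LBR of these share the LEM domain. Barrier-to-autointegration factor (BAF), the product of BANF1, bridges DNA and binds LEM domains, and it gathers the membranes around the chromosomes at the end of mitosis. The kinase VRK1 phosphorylates BAF and releases it from DNA when the envelope comes apart.

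Depth over the listed features ranged from 15724554 to 35084590 reads in the empty-vector libraries and from 7632063 to 20831785 in the pre-miR-203a libraries. MIR203A, the hairpin carried by the vector, had 8, 21 and 22 reads in empty-vector libraries 1, 2 and 3 and 34827, 8476 and 20942 in pre-miR-203a libraries 1, 2 and 3. On the second principal component both libraries numbered 3 lay apart from the other libraries, so values without them are given where they matter. The summed FPKM of 8 mammary epithelial markers was 1013 to 1294 in the empty-vector and 936 to 1320 in the pre-miR-203a libraries, while single markers moved in both directions. KRT5, a basal keratin, fell from 617 ± 74.2 to 383 ± 26.5 FPKM (SD, n = 3 each; limma, adjusted p = 0.0189), a call lost when library 1 or 2 of either group was left out. CDH1, the epithelial cadherin, rose from 55.8 ± 7.09 to 101 ± 14.0 FPKM (limma, adjusted p = 0.0098). KRT17 went from 217 ± 88.1 to 388 ± 168 FPKM and TP63 from 10.6 ± 2.04 to 5.70 ± 1.93, with an adjusted p of 0.182 and 0.0534 in limma, or 0.0173 and 0.0259 with the number as block. KRT14 stood at 1.34 and 1.06 FPKM on average. Of 6 blood and 4 endothelial markers, 3 each were listed, all under 1 FPKM in every library. Of 5 fibroblast markers 4 were listed, with a summed FPKM of 3.88 to 6.90 against 5.52 to 9.47. Of these COL1A1 rose from 0.90 ± 0.15 to 1.93 ± 0.03 FPKM (limma, adjusted p = 0.0129), a call lost when library 1 of either group was left out. The part of these marker differences in the results was not tested.

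BANF1, LMNB1, LMNB2, TMPO and VRK1 stood in pre-miR-203a cells at 0.305 to 0.393 of their mean level in control cells, while the ranges of LMNA, EMD, LBR, LEMD2 and LEMD3 overlapped between the groups. In bulk RNA fewer cells of a type and less RNA per cell cannot be told apart. The unit is FPKM, reads scaled to gene length and library size. Levels of different genes set side by side depend on the length counted for each gene, which was not checked here. Log2 fold changes are of log2(FPKM + 1), pre-miR-203a over empty vector, from limma.

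BANF1 (ENSG00000175334.8; chr11:66002079-66004149, + strand, GRCh38) had 37.7, 39.2 and 28.7 FPKM in empty-vector libraries 1, 2 and 3 and 8.87, 9.72 and 17.0 in pre-miR-203a libraries 1, 2 and 3. The groups did not overlap, and pre-miR-203a library 3 was the highest of its group. The means were 35.2 ± 5.66 and 11.9 ± 4.46 (SD, n = 3 each), a log2 fold change of −1.53 ± 0.24 (SE), on 886 to 2057 and 194 to 303 reads. Within same-numbered libraries the level in pre-miR-203a cells was 0.235, 0.248 and 0.592 of the control level for numbers 1, 2 and 3. Without both libraries numbered 3 the log2 fold change was −1.94.

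The BANF1 3′ UTR of 377 nt holds 1 full 8mer match to miR-203a-3p, 8 bases read CATTTCAA, at chr11:66003924-66003931. An 8mer pairs with bases 2 to 8 of the microRNA and has an A opposite its first base, and a 7mer-m8 (CATTTCA) lacks that A. A 7mer-A1 (ATTTCAA) keeps the A without pairing base 8, and a 6mer is ATTTCA. The microRNA and the matches of 7 bases or more in the genes of the group are shown to compare the sites, with the seed or the match in capitals. The 5 windows with a location after their name are 5′ to 3′ on the gene's strand in GENCODE 29 (GRCh38), and the microRNA is from RefSeq (GRCh38.p14, chr14:104117469-104117490, + strand).
miR-203a-3p: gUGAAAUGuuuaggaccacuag
BANF1 8mer, chr11:66003913-66003942, + strand: tctcccctaacCATTTCAActtttttttgg
LMNB2 7mer-m8, chr19:2428276-2428305, − strand: gcatggactttCATTTCAgagattcggttt
LBR 7mer-m8, chr1:225402295-225402324, − strand: tgaaaatttgcCATTTCAggctaatatttt
TMPO 7mer-A1, chr12:98549560-98549589, + strand: aggtgattaaaATTTCAAtagaatcaaatg
TMPO 7mer-A1, chr12:98549739-98549768, + strand: acacaattttgATTTCAAttagccttattc

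Of the 10 genes BANF1 alone had an 8mer, and LMNB2 and LBR had a 7mer-m8 each. TMPO had the pair of 7mer-A1 matches and 3 6mers in its longest 3′ UTR of 2521 nt. The 3′ UTR of 1292 nt on the TMPO transcript with the longest coding sequence had none, so its matches depend on the isoform, and FPKM here is per gene. LEMD3 had 3 6mers, and LMNA, LMNB1, EMD, LEMD2 and VRK1 had no match. Among 10184 tested genes with a 3′ UTR, 7.34% had an 8mer as their best match and 15.5% a 7mer-m8. LMNB1 and VRK1 were lower without one, and LBR, with a 7mer-m8, had a log2 fold change of −0.21 ± 0.12 (SE). BANF1 and LMNB2 were lower with a match of these kinds. BANF1 was chosen for its match and its fall together, so nothing is read from their meeting in BANF1. Over all tested genes with a 3′ UTR, 18.0% of those with an 8mer and 15.0% of those with a 7mer-m8 were called lower by limma, against 7.18% of those with no match.

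LMNB1 (ENSG00000113368.12; chr5:126776623-126837020, + strand), the B-type lamin known to be lost from senescent cells, had 61.1, 62.0 and 54.6 FPKM in control cells and 17.9, 30.9 and 21.0 with pre-miR-203a. The groups did not overlap, and pre-miR-203a library 2 was the highest of its group. The log2 fold change was −1.35 ± 0.19 (SE), from a mean of 59.3 ± 4.02 to 23.3 ± 6.83 FPKM (SD, n = 3 each).

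LMNB2 (ENSG00000176619.13; chr19:2427638-2456996, − strand), the other B-type lamin, had 57.5, 65.9 and 44.9 FPKM against 17.6, 21.8 and 21.6. The pre-miR-203a libraries lay close together and all below the controls. The log2 fold change was −1.41 ± 0.16 (SE). The 3′ end of LMNB2 overlaps TIMM13, a gene for a mitochondrial import chaperone on the same strand, by 257 bases, and TIMM13 had 43.5 to 63.6 FPKM against 41.0 to 60.2.

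LMNA (ENSG00000160789.20; chr1:156082573-156140089, + strand), which gives lamin A and lamin C by splicing, had 59.1, 64.9 and 54.7 FPKM in control cells and 52.9, 50.7 and 62.8 with pre-miR-203a. These ranges overlapped, and the log2 fold change was −0.10 ± 0.13 (SE). Lamin A and lamin C were not told apart in a table per gene.

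In FPKM the 3 lamin RNAs stood at about the same level in control cells and apart in pre-miR-203a cells. Empty-vector library 1 had 6495 reads of LMNA, 3492 of LMNB1 and 4877 of LMNB2. The near-equal control levels and the shares below therefore rest on the length counted for each gene. The change of a ratio between the groups does not depend on that length. The ratio of LMNB1 to LMNA FPKM was 1.03, 0.955 and 0.998 in empty-vector libraries 1, 2 and 3 and 0.338, 0.610 and 0.334 with pre-miR-203a. The ratio of LMNB2 to LMNA was 0.972, 1.02 and 0.820 against 0.333, 0.431 and 0.344. The B-type share of the summed lamin FPKM was 65.9% ± 1.18 in control and 43.9% ± 6.19 in pre-miR-203a cells (SD, n = 3 each). Between the B-type lamins the FPKM balance was close, with LMNB1 at 1.07 ± 0.14 times LMNB2 in control and 1.13 ± 0.25 times in pre-miR-203a cells.

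**Figure D1:**
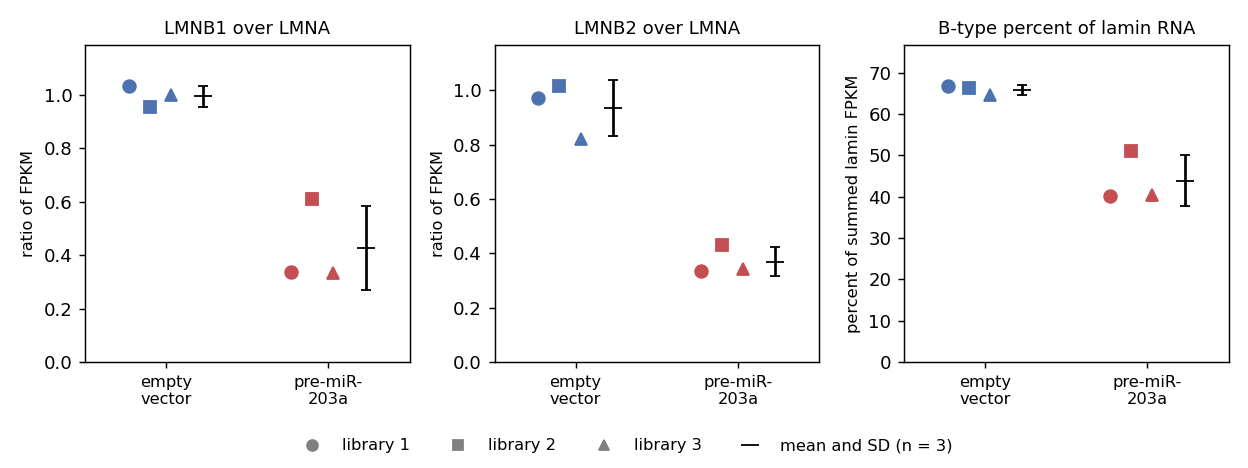
Ratios of LMNB1 and LMNB2 to LMNA FPKM and the B-type percentage of the summed lamin FPKM, per library (symbols by library number, black bars for mean and SD, n = 3). All pre-miR-203a libraries lie below all empty-vector libraries in each panel, with 40.2% to 51.0% B-type FPKM against 64.5% to 66.7%.

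TMPO (ENSG00000120802.13; chr12:98515512-98550379, + strand), whose splice forms are the LAP2 proteins, had 36.3, 35.3 and 31.7 FPKM in control cells and 9.89, 13.7 and 7.88 with pre-miR-203a. With all libraries it had the lowest log2 fold change of the group, −1.65 ± 0.19 (SE), and its groups were far apart. Without pre-miR-203a library 3 BANF1 was lower, at −1.80 against −1.48 for TMPO. The antisense RNA TMPO-AS1 overlaps the start of TMPO by 911 bases on the opposite strand. TMPO-AS1 fell from 3.23 ± 0.53 to 1.36 ± 0.37 FPKM (SD, n = 3 each), −0.84 ± 0.16 on the log2 scale (limma, adjusted p = 0.0147). This call ended without empty-vector library 1 or 2, with an adjusted p of up to 0.0675 (limma). No source used here gives the strand setting of the counting, so reads of TMPO and TMPO-AS1 in that stretch cannot be told apart. TMPOP2, a processed pseudogene copy of TMPO, had 7, 15 and 10 reads against 0, 2 and 0, and some of these reads may belong to TMPO.

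The RefSeq promoter window of TMPO is shown because it lies within the stretch that TMPO-AS1 spans on the other strand. It runs from 250 bases before to 50 bases after the start on the + strand, with CCAAT in capitals.
TMPO promoter, chr12:98515323-98515622: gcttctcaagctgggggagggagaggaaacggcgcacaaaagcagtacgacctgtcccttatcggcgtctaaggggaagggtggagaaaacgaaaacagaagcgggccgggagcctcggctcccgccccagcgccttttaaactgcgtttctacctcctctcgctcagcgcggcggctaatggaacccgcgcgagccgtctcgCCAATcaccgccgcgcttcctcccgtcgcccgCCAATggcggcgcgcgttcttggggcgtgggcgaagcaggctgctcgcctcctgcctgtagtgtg
The letters CCAAT, the core read by NF-Y, occurred at 2 places in it, and 34.6% of 35116 RefSeq promoter windows hold CCAAT on either strand, as do 35.3% of the 12306 windows of tested genes. In this group CCAAT also occurred in windows of LMNB1, LMNA, EMD and LEMD3. The letters TTTGAA, known from promoters of mitotic genes, occurred in 15.2% of all windows and 10.2% of those of tested genes and, in this group, in that of LMNB2. The E2F-like letters TTTGGCGC, TTTCGCGC, TTTCCCGC, TTTGCCGC, TTTGGCGG or TTTCCCGG occurred in 5.33% of all windows and 8.48% of those of tested genes and, in this group, in 1 window each of LMNA and LEMD3. Windows were found for 9 of the 10 genes, 13 in all, and both strands were searched. That of BANF1 held none of these letters.

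VRK1 (ENSG00000100749.8; chr14:96797304-96931722, + strand), the BAF kinase, had 31.3, 29.9 and 27.2 FPKM in control cells and 9.49, 13.8 and 8.96 with pre-miR-203a. The groups did not overlap, and the log2 fold change was −1.40 ± 0.17 (SE). LMNB1, LMNB2, TMPO, VRK1 and LBR were each highest within the pre-miR-203a group in library 2, LMNB2 by little, which also had the lowest MIR203A level of the group, 3699 FPKM against 19005 and 24945. BANF1, LMNA, EMD and LEMD2 were highest in library 3, and LEMD3 in library 1. MIR203A values count reads over the hairpin feature, and mature miR-203a-3p was not told apart in them. The part of the MIR203A level in these differences was not tested.

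**Figure D2:**
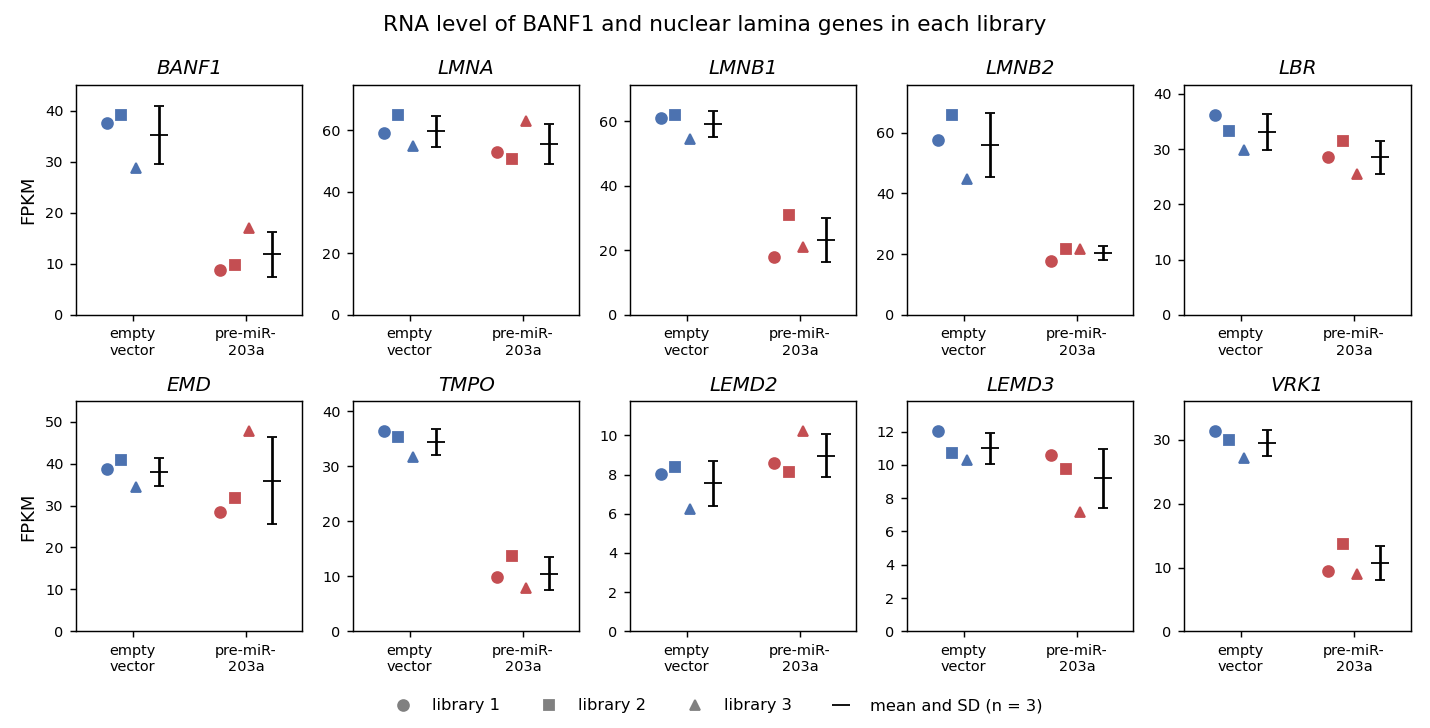
FPKM of the 10 genes in each library, on linear axes from 0 (blue for empty vector, red for pre-miR-203a, symbols by library number, black bars for mean and SD, n = 3). BANF1, LMNB1, LMNB2, TMPO and VRK1 separate the groups, for example 31.7 to 36.3 against 7.88 to 13.7 FPKM for TMPO, while the other 5 genes overlap.

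Emerin RNA overlapped between the groups, unlike that of its partner BAF. EMD (ENSG00000102119.11; chrX:154379197-154381523, + strand) had 38.6, 40.9 and 34.5 FPKM in control cells and 28.3, 31.9 and 47.7 with pre-miR-203a. Pre-miR-203a library 3 was above and libraries 1 and 2 below every control library, so the groups overlapped, and the log2 fold change was −0.11 ± 0.19 (SE). Without both libraries numbered 3 it was −0.39 and its adjusted p was under 0.05 in limma. The ratio of BANF1 to EMD FPKM was 0.975, 0.957 and 0.833 in control and 0.313, 0.305 and 0.357 in pre-miR-203a libraries, with library 3 the lowest of the controls and the highest of the pre-miR-203a libraries. The groups did not overlap.

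LBR (ENSG00000143815.15; chr1:225401502-225428925, − strand), a lamin B receptor that is also a sterol reductase, had 36.2, 33.3 and 29.8 FPKM against 28.5, 31.4 and 25.5. LEMD3 (ENSG00000174106.3; chr12:65169571-65248327, + strand), which encodes MAN1, an inhibitor of SMAD signalling, had 12.0, 10.7 and 10.3 FPKM against 10.6, 9.74 and 7.19. LEMD2 (ENSG00000161904.12; chr6:33771202-33789136, − strand), which recruits the sealing machinery to the reforming envelope, had 8.05, 8.39 and 6.25 FPKM against 8.57, 8.11 and 10.2. The groups overlapped for all of these genes. Their log2 fold changes were −0.21 ± 0.12, −0.25 ± 0.15 and 0.22 ± 0.14 (SE).

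In control cells the order of levels ran from LMNA, LMNB1 and LMNB2, at 56.1 to 59.6 FPKM on average, to LEMD3 and LEMD2, at 10.99 and 7.57. This order rests on the length counted for each gene. The 3 lamins were not set apart from each other by their spread. EMD, BANF1, TMPO, LBR and VRK1 followed at 38.0, 35.2, 34.4, 33.1 and 29.5 FPKM, and each overlapped its neighbours in that order. LMNB2 and EMD did not overlap, nor did VRK1 and LEMD3, or LEMD3 and LEMD2. In pre-miR-203a cells LMNA stayed first at 55.5 FPKM, followed by EMD at 36.0 and LBR at 28.5. LMNB1 and LMNB2 stood at 23.3 and 20.4, and BANF1, VRK1 and TMPO at 11.9, 10.7 and 10.5, near LEMD3 and LEMD2 at 9.18 and 8.96.

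Of the 10 genes, all of which passed the filter on low values, limma called 5 lower and 0 higher at an adjusted p under 0.05, the same counts as with limma-voom on the reads recovered. Over all 11271 tested features 9.18% were lower and 6.59% higher, 15.8% in either direction, so 41.8% of the calls were higher, against 30.2% with TPM in place of FPKM. Since the 10 genes were chosen with results of the comparison known, nothing is read from their count against these shares. The groups were apart and lower for 5 of the 10 genes, against 20.9% of all tested features, and 16.6% were apart and higher. The median log2 fold change was −0.80 over the 10 genes and −0.01 over all tested features. The same 5 genes were past the threshold under all 16 other settings, with EMD beside them only without both libraries numbered 3. The share of all features lower was 9.95% with the replicate number as a block and 9.46% with limma-voom on recovered reads. The authors' deposited table gave log2 fold changes, turned to pre-miR-203a over control, of −1.56 for BANF1, −1.32 for LMNB1, −1.43 for LMNB2, −1.69 for TMPO and −1.43 for VRK1. In the authors' deposited table the values for LMNA, LBR, EMD, LEMD2 and LEMD3 ranged from −0.23 to 0.27. Of the 14209 features with an adjusted p in the authors' deposited table, 9.45% were lower.

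**Figure D3:**
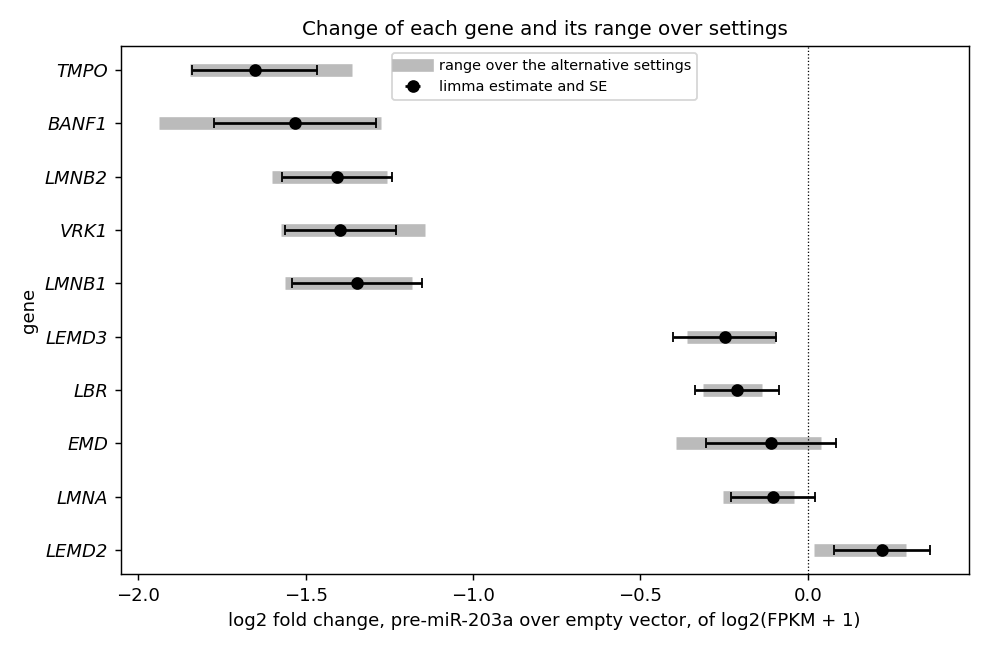
Log2 fold change of each gene, pre-miR-203a over empty vector, of log2(FPKM + 1), with its SE from limma (points and bars) and the range over the alternative settings (grey). BANF1, LMNB1, LMNB2, TMPO and VRK1 stay at or below −1.14 in every setting, and the other 5 genes lie between −0.39 and 0.29.

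Genes of replication and mitosis were lower in the same libraries. In a list of 20, 19 fell (limma, adjusted p under 0.05), against 9.18% lower among all tested features. The median log2 fold change of the list was −1.30. It was set down with earlier results of these data known, so nothing is read from its count against that share. The number that fell was 14 without empty-vector library 1, 14 without empty-vector library 2 and 15 without pre-miR-203a library 1. RRM2, a ribonucleotide reductase subunit, fell from 43.3 ± 5.17 to 13.9 ± 3.85 FPKM (SD, n = 3 each), −1.59 ± 0.19 on the log2 scale. PCNA, the sliding clamp of replication, and MCM6, a subunit of the replicative helicase, stood at −1.43 ± 0.18 and −1.26 ± 0.16 on that scale. For these genes limma gave an adjusted p of at most 0.0043. The summed FPKM of the list was 1132 to 1447 in the empty-vector and 447 to 664 in the pre-miR-203a libraries, highest of its group in library 2. The part of cell cycling in the lower lamina genes was not tested.

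Beyond the 10 genes, lists of nuclear envelope genes held most of their falls in the pore, among mitotic kinases and cyclins and among the HP1 proteins. The 9 lists counted together, called the envelope lists here, include those of mitotic kinases and cyclins and of cytosolic DNA sensing. Over them 93 genes were tested, of which 28 fell and 3 rose, against 9.18% and 6.59% of all tested features. The lists were set down with earlier results of these data known, so nothing is read from these counts against the shares. The median log2 fold change of the 93 genes was −0.19. The number that fell was 12 without empty-vector library 1, 13 without empty-vector library 2 and 17 without pre-miR-203a library 1. An 8mer or 7mer-m8 match to miR-203a-3p was held by 20.4% of these 93 genes, against 22.8% of tested genes with a 3′ UTR. Of the 28 that fell 5 held one, and of all 1008 tested genes with a 3′ UTR that fell 371 did.

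Of 10 tested inner membrane and torsin genes 2 fell and 2 rose (limma), against 9.18% and 6.59% of all tested features. NEMP1, a membrane protein that stiffens the envelope, fell from 13.9 ± 2.03 to 4.64 ± 0.79 FPKM (SD, n = 3 each), −1.40 ± 0.15 on the log2 scale (limma, adjusted p = 0.0031). NRM, which encodes nurim, fell from 12.3 ± 0.54 to 5.658 ± 1.121 FPKM, −1.01 ± 0.14 on the log2 scale (limma, adjusted p = 0.0059). TMEM43, which encodes the emerin partner LUMA, rose from 34.9 ± 3.39 to 52.9 ± 4.41 FPKM, 0.59 ± 0.12 on the log2 scale (limma, adjusted p = 0.0172). TOR1B, a torsin ATPase named here after its values were seen, differed by 0.50 ± 0.14 on the log2 scale (limma, adjusted p = 0.0457). The calls of TMEM43 and TOR1B ended without any 1 empty-vector library or without pre-miR-203a library 1, and that of TOR1B also without pre-miR-203a library 3. With TPM in place of FPKM no gene of the envelope lists was called higher.

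Of the genes that act on BAF phosphorylation 11 were tested. Of these 2 fell and 1 rose (limma), against 9.18% and 6.59% of all tested features. VRK2, a membrane-bound relative of VRK1, fell by 0.51 ± 0.12 on the log2 scale (limma, adjusted p = 0.0258, or 0.0554 with the number as block). VRK3, a relative with little kinase activity, rose by 0.61 ± 0.16 on the log2 scale (limma, adjusted p = 0.0438, or 0.0593 with the number as block). PPP2CA, a catalytic subunit of the phosphatase PP2A, fell by 0.39 ± 0.10 on the log2 scale (limma, adjusted p = 0.0431, or 0.0700 with the number as block). Each of these calls ended without any 1 empty-vector library or without pre-miR-203a library 1, where limma gave an adjusted p of up to 0.153. The call of PPP2CA also ended with limma-voom (adjusted p = 0.0596), median-ratio scaling (0.0728) and no filter on low values (0.0660), and that of VRK3 with a pseudocount of 5 (0.0509), no filter (0.0738) and TPM (0.0804).

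Of 5 tested genes of heterochromatin contact 3 fell, against 9.18% of all tested features, and these 3 were the HP1 genes. CBX5, for HP1 alpha, which binds LBR, fell from 11.9 ± 0.56 to 5.07 ± 0.41 FPKM (SD, n = 3 each), −1.09 ± 0.11 on the log2 scale (limma, adjusted p = 0.0024). CBX1 and CBX3, for HP1 beta and HP1 gamma, had log2 changes of −0.71 ± 0.11 and −0.78 ± 0.14 (limma, adjusted p = 0.0083 and 0.0109). CBX5 holds a 7mer-m8, CBX3 an 8mer and CBX1 a 7mer-A1 as best match to miR-203a-3p. The calls of all 3 HP1 genes stood without any 1 library, with an adjusted p of at most 0.0499 (limma).

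Of the 32 nucleoporins 13 fell, against 9.18% of all tested features, and their median log2 fold change was −0.40. A negative log2 fold change was found in 27 of the 32, and in 5830 of all 11271 tested features. NUP107, a subunit of the Y complex that seeds new pores, fell from 12.96 ± 1.16 to 6.86 ± 1.09 FPKM (SD, n = 3 each), −0.83 ± 0.14 on the log2 scale (limma, adjusted p = 0.0087). NUP155, of the inner ring, and NUP37, also of the Y complex, had log2 changes of −0.72 ± 0.12 and −0.84 ± 0.14 (limma, adjusted p = 0.0093 and 0.0096). Leaving out 1 library moved the count far: 2 nucleoporins fell without empty-vector library 1, which left NUP37 and NUP107. The count was 4 without empty-vector library 2 and 5 without pre-miR-203a library 1. It was 10 without empty-vector library 3 or without pre-miR-203a library 2, and 13 without pre-miR-203a library 3. Without both libraries numbered 3 it was 18. Without a filter on low values 8 fell.

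Against 9.18% of all tested features, 5 of 8 kinases and cyclins of envelope breakdown fell. They were CDK1, the mitotic kinase that phosphorylates lamins (64.6 ± 13.5 to 19.8 ± 3.56 FPKM, SD, n = 3 each), NEK2, CCNB2 and, named after their values were seen, CCNB1 and PLK1. Their log2 fold changes were −1.65 ± 0.19, −1.16 ± 0.20, −1.16 ± 0.25, −1.29 ± 0.28 and −1.25 ± 0.28, with an adjusted p of at most 0.0228 (limma). The calls of CCNB1, CCNB2 and PLK1 ended without any 1 empty-vector library, which left 2, and that of CCNB2 also without both libraries numbered 3 (adjusted p = 0.0535, limma).

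Of 12 tested genes of ESCRT-III and its helpers, which seal the holes of the reforming envelope, 1 fell, against 9.18% of all tested features. A positive log2 fold change was found in 9 of the 12, and in 5441 of all 11271 tested features. Without both libraries numbered 3 limma called 3 of the 12 higher and 1 lower. CHMP3 fell from 12.6 ± 0.48 to 5.94 ± 0.74 FPKM (SD, n = 3 each), −0.98 ± 0.12 on the log2 scale (limma, adjusted p = 0.0038), and it holds a 7mer-m8 match. CHMP3 shares exons with a readthrough transcript, so how its reads were split is uncertain. None of 4 tested LINC complex genes and none of 5 lamin tail processing genes was called by limma or by limma-voom on recovered reads. Of all tested features limma called 15.8% in either direction, so nothing is read from counts of 0 in such short lists. At an unadjusted p under 0.05 in limma 1 LINC complex gene was higher and 0 lower, and 0 lamin tail processing genes were in either direction. The smallest p of these lists were those of SYNE4, a nesprin (log2 fold change 0.81 ± 0.26; adjusted p = 0.0777, limma), and ICMT, which methylates lamin tails, at −0.28 ± 0.12 on the log2 scale (limma, adjusted p = 0.17). SYNE4 was past the threshold without pre-miR-203a library 3, and both were without both libraries numbered 3, at 0.0232 and 0.0198 (limma). In that last setting limma called 1 LINC complex gene higher and 1 lower. ICMT holds an 8mer match and SYNE4 none.

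Of 6 tested genes of cytosolic DNA sensing 2 fell, against 9.18% of all tested features. CGAS, the DNA sensor that BAF is known to keep off nuclear DNA, fell from 4.91 ± 0.27 to 2.51 ± 0.40 FPKM (SD, n = 3 each), −0.76 ± 0.13 on the log2 scale (limma, adjusted p = 0.0095). IFI16, another DNA sensor, differed by −0.73 ± 0.14 on the log2 scale (limma, adjusted p = 0.0161). Leaving out pre-miR-203a library 1, or library 2 or 3 of the controls, ended the call of IFI16, at an adjusted p of up to 0.0619 (limma).

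**Figure D4:**
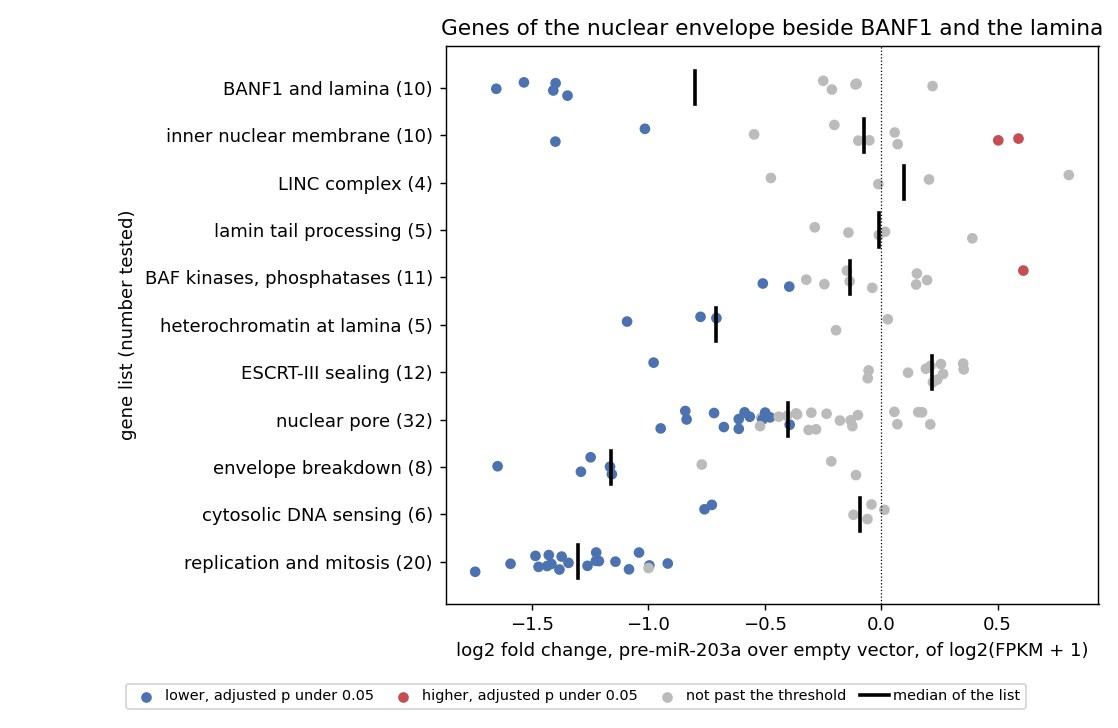
Log2 fold change of each tested gene, pre-miR-203a over empty vector, of log2(FPKM + 1), by list, with numbers tested in brackets (blue for lower and red for higher at an adjusted p under 0.05 in limma, grey for the rest, black bars for list medians). The medians run from −1.30 for replication and mitosis and −1.16 for envelope breakdown to 0.22 for ESCRT-III and its helpers.

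Genes that touch BANF1 and the other genes were read beside them. EIF1AD, a gene for an initiation factor-like protein that starts on the opposite strand and overlaps BANF1 by 98 bases, had 8.66, 8.49 and 9.72 FPKM in control cells and 9.20, 8.76 and 9.33 with pre-miR-203a. Its log2 fold change was 0.02 ± 0.10 (SE), and the groups overlapped. GENCODE 29 annotates 5 processed pseudogenes of BANF1, none of them among the listed features, and how reads shared with them were counted is uncertain. MEX3A, 574 bases from LMNA, had 0.52 to 0.94 FPKM against 0.50 to 0.93. AC026124.2, within LEMD3, and LINC00618, which overlaps the end of VRK1, had at most 9 reads in any library.

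The tested features whose log2(FPKM + 1) was most like that of BANF1 over the 6 libraries were RDM1, UPP1, PLEKHG2, CAMTA1 and APPL2, with Pearson correlations of 0.994 to 0.999. UPP1, the uridine phosphorylase, had 27.6, 27.6 and 24.7 FPKM against 15.9, 16.5 and 20.6, and like BANF1 it was lowest of the controls and highest of the pre-miR-203a libraries in library 3. Among the other genes of the group LMNB2 was closest to BANF1 (0.959), followed by LMNB1 (0.881), VRK1 (0.870) and TMPO (0.850). LEMD2 was at −0.303. Among 11270 ranked features LMNB2 stood only at rank 166, LMNB1 at 814, VRK1 at 911 and TMPO at 1087, so many features outside the group were closer to BANF1. The points share their libraries and the shift between the groups.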

How the data were processed

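RNA of 3 empty-vector and 3 pre-miR-203a MCF10A libraries was grouped and numbered by the sample titles. The submitters' processing notes name hg38, featureCounts 2.0.0, DESeq2 1.28.1, MultiQC 1.6 and FastQC 0.11.5. No aligner, annotation release or strand setting is given in the sources used here. FPKM values for 18999 features were deposited by the authors. A second deposited table holds TPM values and the authors' DESeq2 output: a baseMean signal, log2 fold changes with SE, and p-values. The sign of the authors' fold changes was turned here.

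The group effect on log2(FPKM + 1) was fitted with limma 3.58.1 (R 4.3.3), using a mean trend and robust variances, for the 11271 features that reached 1 FPKM in 3 libraries or more. Benjamini-Hochberg adjustment ran over all of them. Reads were recovered from FPKM and baseMean, and 100.0% of values were whole within 0.01. The recovered totals give the depths. The test was checked on simulated data.

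Deviations from group means correlated at 0.433, 0.269 and 0.321 between same-numbered libraries. Between libraries of different number they correlated at −0.417 to 0.221. Deviations within a group sum to 0, so these correlations are not independent, and the numbers were taken only as a possible pairing. The main fit left them out. A fit with the number as a block was an alternative. Its value is printed where it changes the call of a gene whose own adjusted p is printed. The labels state no batch.

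The 10 genes and the lists were chosen with earlier results of these data known. The 14 lists beside the genes had 144 entries, of which 135 matched a listed feature. Named genes were the 10 genes, MIR203A, up to 3 called genes per list by smallest p or else the first, the 5 most like BANF1, listed features within 1000 bases, and pseudogenes. The cell type markers given by name were chosen after their values were seen. Seed matches were searched in the longest annotated 3′ UTR of GENCODE 29. Alternatives were the pseudocount, the filter, the scaling, TPM, variances without robustness, limma-voom on recovered reads, the block and each library left out. Python 3.11.15, numpy 2.4.6, pandas 2.3.3 and matplotlib 3.10.9 were used.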

Additional observations from a re-analysis of the deposited data

How the results depend on the processing

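BANF1, LMNB1, LMNB2, TMPO and VRK1 kept their direction and their side of the threshold in all 16 other settings, with 5 of the 10 genes lower in 15 of them and 6 without both libraries numbered 3, a setting chosen after seeing the data. Leaving out 1 library at a time gave 422 to 1338 features lower and 323 to 919 higher, against 1035 and 743 with all libraries, and 12 to 29 genes of the envelope lists lower and 0 to 4 higher, against 28 and 3. Without both libraries numbered 3 the counts were 1951 and 1239 features, and 39 lower and 6 higher envelope genes. With TPM in place of FPKM 434 features were higher and 1005 lower, so the share of higher calls was 30.2% against 41.8%, with a median log2 fold change over all features of −0.11 against −0.01, and 0 envelope genes were higher. Without a filter on low values 1 envelope gene was higher. The causes of these shifts were not tested. With the replicate number as a block 1122 features were lower and 848 higher, 5 of the 10 genes were lower, 25 envelope genes were lower and 2 higher, and among the genes named from the lists the calls of VRK2, VRK3 and PPP2CA ended and the markers KRT17 and TP63 were called. The log2 fold change of EMD, past the threshold only without both libraries numbered 3, ranged from −0.39 to 0.04, so its sign was not settled. The number of members with an 8mer or 7mer-m8 match was 3 with either choice of 3′ UTR. With 3 libraries per group and as few as 194 reads for BANF1, small changes could be missed.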
